A study of Mus musculus with 6 samples.

Results

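Heat shock chaperones of the cytosol and of mitochondria were read in mouse colon with and without the histone deacetylase gene Hdac2 in the intestinal epithelium. The set was defined by name, with earlier results of these data known. It took all probe sets whose platform gene symbol was among 36 chaperone, co-chaperone and heat shock factor genes. Of these, 34 genes were represented by 86 of the 45101 probe sets, with 1 to 5 probe sets per gene, and 33 were among the 10916 genes that passed the signal filter. Hspa1l, a testis-type Hsp70 gene, lay below the filter at a log2 signal of 3.58 ± 0.0084 for control and 3.53 ± 0.082 for HDAC2 KO (mean ± SD of 3 arrays). Hsp90ab1 and Hsf1 are not analysed here.

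The data comprised 6 one-colour arrays, 3 of control and 3 of HDAC2 KO colon, given as RMA log2 signal. In HDAC2 KO mice a floxed Hdac2 gene was deleted by Cre driven from villin, a gene of the intestinal epithelium, so that cells of muscle, fat, vessels and blood keep the gene. The mice were of a mixed CD-1, 129 and C57BL/6 background, received no treatment and ate a normal diet, and their ages and the alleles carried by the controls are not given in the sources used here. The labels name epithelium in 1 field and colon RNA in another, and the description of the HDAC2 KO samples names HDAC1 as well, although title and genotype name HDAC2 alone. All 18 smooth muscle markers, 8 adipocyte, 13 leukocyte and 11 endothelial markers passed the signal filter beside 15 epithelial ones, so genes known from other cells of the colon wall were detected. In bulk RNA, fewer cells of a type and less RNA per cell cannot be told apart. Each array carries the number of 1 mouse, and nothing else in the labels says how the samples were taken, so the p-values measure the spread between these samples.

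Chaperones bind unfolded proteins and help them fold. Hsp70 proteins work in cycles of ATP binding and release that Hsp40 proteins start and nucleotide exchange factors such as Hsp110 and Bag proteins complete, and they pass some clients to Hsp90 through linker proteins. Small heat shock proteins hold unfolded proteins without ATP, and a chaperonin with its co-chaperonin folds proteins inside mitochondria. Under heat and other stress, heat shock factor 1 binds promoter elements built of inverted GAA units and raises the inducible members. In the gut, inducible Hsp70 and Hsp25 are known as cytoprotective proteins of the colonic epithelium whose level depends on the microbiota.

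Both inducible Hsp70 genes, 5 of 7 Hsp40 genes and 6 of 7 co-chaperones were lower in HDAC2 KO, 4 of 6 small heat shock genes were higher, and 0 of 3 mitochondrial chaperones were called. Of the 33 genes tested, 16 were called lower, 4 higher and 13 were not called. A call is a Benjamini-Hochberg adjusted p under 0.05 from limma over all genes tested. For all genes tested, 8.2% were called lower and 9.68% higher, against 48.5% and 12.1% of the chaperone genes. Because the members were chosen with earlier results of these data known, these shares describe the set and test nothing. The median log2 difference, HDAC2 KO minus control, was -0.17 over the 33 genes and 0.0032 over all genes tested. The groups did not overlap for 25 of the 33 genes, where 37.7% of all genes tested were without overlap. All 20 called genes were among these 25.

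Most of the 20 called differences were small. The 16 lower genes had a median fold of 1.20 and a smallest fold of 1.11. Only 5 called genes passed a fold of 1.5, namely Hspa1a, Hspa1b, Dnaja1, Hsph1 and Chordc1, all lower. Since the groups of the 20 called genes did not overlap, any pairing of arrays had to give the direction of the call. The 16 lower genes were thus lower in each of the 3 pairs of same-numbered arrays, and the 4 higher genes were higher in each. HDAC2 KO replicate 2 deviated most from its group mean over the chaperone genes, with a root mean square of 0.077 against 0.029 to 0.065 on the other arrays. It also deviated most over all genes tested, at 0.080 against 0.042 to 0.066. Without HDAC2 KO replicate 2, 14 genes were called lower and 4 higher. These 4 were not the same genes as before. Hspb8 lost its call (limma adjusted p = 0.0572), and the mitochondrial chaperone gene Hspe1 gained a call (limma adjusted p = 0.0204).

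**Figure D1:**
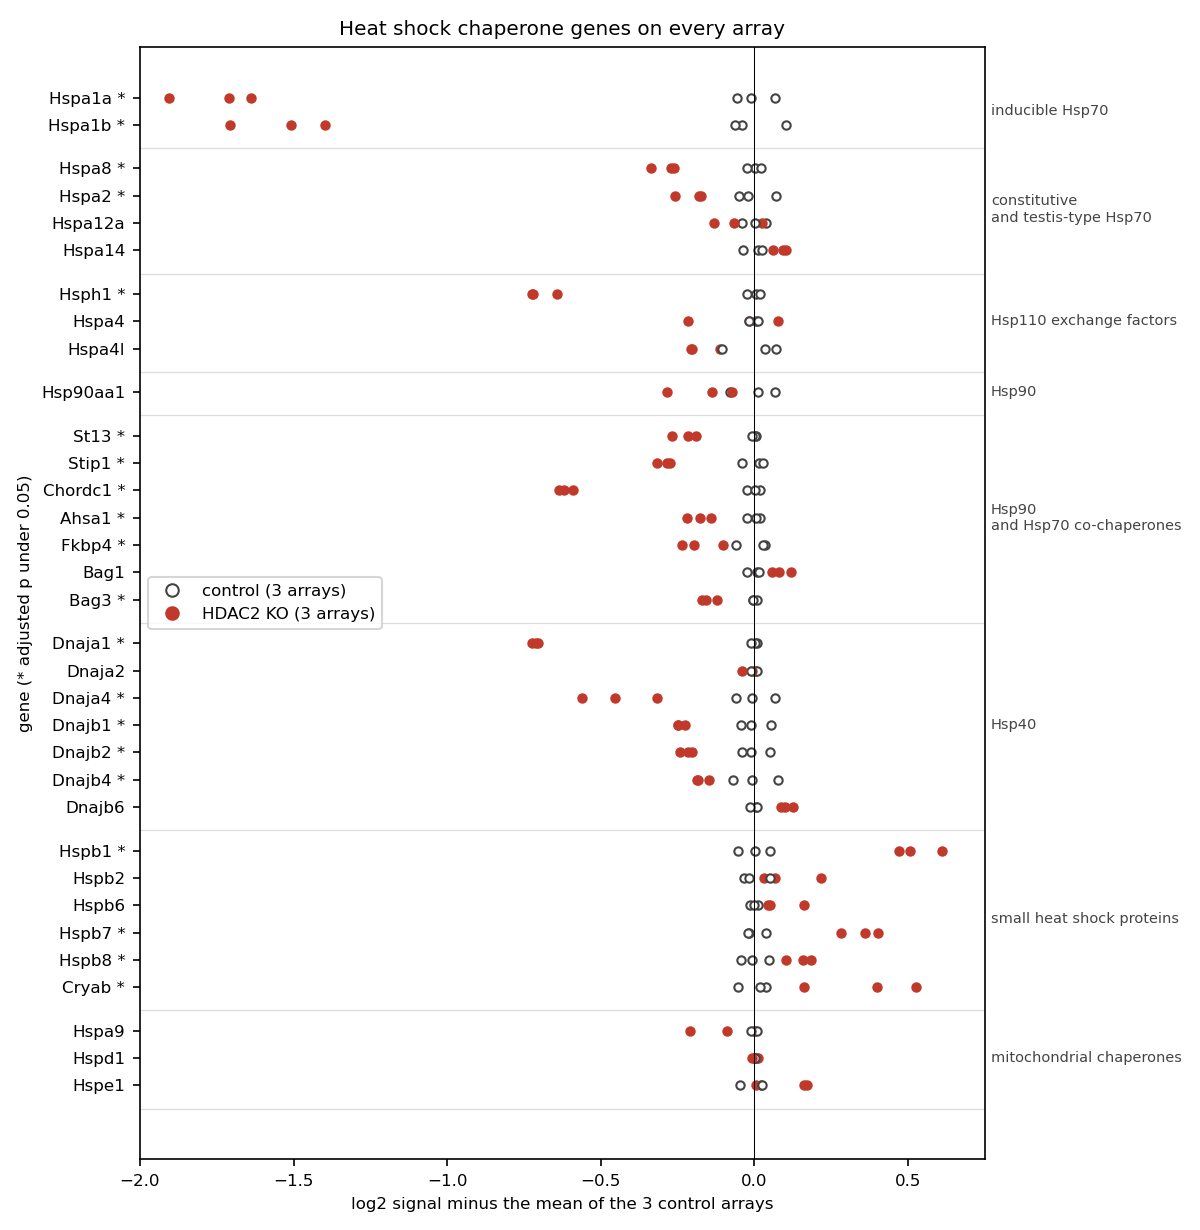
Log2 signal of each chaperone gene on each of the 6 arrays, minus the mean of its 3 control arrays (x axis), with genes grouped by role (y axis). Open points are control and filled points HDAC2 KO, and a star marks an adjusted p under 0.05. Hspa1a and Hspa1b stand far to the left, most cytosolic genes lie to the left by less than 0.8, and the small heat shock genes lie to the right.

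The inducible Hsp70 genes fell most. Hspa1a and Hspa1b, which encode nearly the same stress-inducible protein, are neighbouring protein-coding genes on chromosome 17 in the RefSeq annotation. Hspa1a read 10.64, 10.60 and 10.72 in control, replicates 1 to 3 in order, and 8.94, 8.75 and 9.01 in HDAC2 KO. Hspa1b read 13.01, 12.99 and 13.15 in control and 11.54, 11.34 and 11.65 in HDAC2 KO. The groups were far apart in both genes, and replicate 2 was the lowest array within each group. Hspa1a was 3.37-fold lower (difference -1.75, SE 0.069, adjusted p = 1.89e-06) and Hspa1b 2.90-fold lower (-1.54, SE 0.079, adjusted p = 1.02e-05). They ranked 9 and 12 among the falls of the 10916 genes. The other probe sets of Hspa1b differed by -1.68 (SE 0.072) and -1.80 (SE 0.066). Since the transcripts are nearly alike, the probe sets of either gene may bind both, and the signals are reported as those of the pair.

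The promoters of the pair are shown because both genes fell together. The windows below are the 150 bases before the annotated gene start, from RefSeq on GRCm38.p6, at chr17:34972157-34972306 for Hspa1a and chr17:34959239-34959388 for Hspa1b, both on the minus strand. Capitals mark a match to a pair of inverted heat shock units.
Hspa1a: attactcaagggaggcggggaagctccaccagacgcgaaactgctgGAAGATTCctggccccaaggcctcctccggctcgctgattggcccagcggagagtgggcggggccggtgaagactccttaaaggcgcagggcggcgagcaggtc
Hspa1b: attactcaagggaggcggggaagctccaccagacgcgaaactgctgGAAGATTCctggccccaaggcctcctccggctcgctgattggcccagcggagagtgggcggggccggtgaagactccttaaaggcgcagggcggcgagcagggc
These windows differ at 1 of 150 bases, and the whole promoter windows of 300 bases differ at 4. In each the match starts 104 bases before the gene start. The search used GAANNTTC and TTCNNGAA for 2 units, and GAANNTTCNNGAA and TTCNNGAANNTTC for 3 units. Each pair of forms covers both strands, and a match of 3 units contains matches of 2. The promoter table held 28 of the chaperone genes. Missing from it were the called genes Hspa8 and St13 (lower) and Cryab (higher), and the uncalled Hsp90aa1, Hspa9 and Hspb2. A match of 2 units occurred in promoters of 15 of these 28 genes and of 17.0% of all 27025 genes in the table, and a match of 3 units in 5 of 28 and in 0.662% of all genes. By call, 2 of 14 lower, 0 of 3 higher and 3 of 10 uncalled genes held 3 units, while 9 of 14 lower, 2 of 3 higher and 4 of 10 uncalled genes held 2 units. The remaining gene is the untested Hspa1l. These matches describe letters within 250 bases before and 50 after a start. Units with a changed base or another spacing were not searched, so a promoter may hold more units than are marked.

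The constitutive Hsp70 gene was lower by far less. Hspa8, which encodes the cognate Hsp70 of unstressed cells, read 13.68, 13.65 and 13.70 in control and 13.40, 13.34 and 13.41 in HDAC2 KO. Every HDAC2 KO array lay below every control array, at a 1.22-fold lower signal (-0.29, SE 0.036, adjusted p = 0.00113). All 4 Hspa8 probe sets differed by between -0.45 and -0.29. Without probe sets whose names end in _s_at or _x_at, Hspa8 lost its call (adjusted p = 0.0844). It was then represented by a probe set that read 11.68 on HDAC2 KO replicate 2 and 12.24 and 12.29 on the other HDAC2 KO arrays. Measured within each array, Hspa1a minus Hspa8 fell by 1.46 on the log2 scale between the groups, from -3.02 ± 0.041 to -4.48 ± 0.097 (SD, n = 3, exact 2-sided permutation p = 0.1, adjusted p = 0.15 over the 3 gene pairs compared). An exact test of 3 against 3 arrays cannot give a p under 0.1.

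Other Hsp70 genes moved little. Hspa2, known from male germ cells, was 1.15-fold lower, its HDAC2 KO arrays at 7.17 ± 0.046 against 7.37 ± 0.063 for control (mean ± SD of 3 arrays, adjusted p = 0.0158). The adjusted p was 0.0643 when control replicate 1 was left out and 0.0526 without the signal filter. Hspa14, of the ribosome-associated Hsp70 complex, differed by 0.085 (SE 0.034, adjusted p = 0.127), and by 0.051 with the mean of its probe sets. Hspa12a, a distant family member, differed by -0.057 (SE 0.047, adjusted p = 0.456), and by -0.020 without HDAC2 KO replicate 2. Hspa1a minus Hspa1b changed by -0.21 within arrays, from -2.39 ± 0.031 to -2.61 ± 0.024 (SD, n = 3, exact 2-sided permutation p = 0.1, adjusted p = 0.15 over the 3 gene pairs). This difference was -0.079 with the mean of each gene's probe sets. The other Hspa1b probe sets differed by -1.68 and -1.80, against -1.75 for Hspa1a. The sign of the change thus depends on the Hspa1b probe set read.

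Among the Hsp110 genes, whose products release ADP from Hsp70, Hsph1 was called. Hsph1, the stress-inducible member, read 11.58, 11.59 and 11.55 in control and 10.93, 10.86 and 10.85 in HDAC2 KO. It was 1.62-fold lower (-0.69, SE 0.036, adjusted p = 1.1e-05), and its second probe set differed by -0.73 (SE 0.072). Hsph1 has 2 annotated starts on the minus strand of chromosome 5. A match of 3 units lies 36 bases after 1 of them and 15 bases after the other. The match is shown here with its flank at chr5:149636288-149636311 (GRCm38.p6).
Hsph1: aatgctgcagaTTCTGGAAAGTTC
Hspa4 had overlapping groups, with 10.63, 10.43 and 10.72 in HDAC2 KO around a control mean of 10.64 (-0.052, SE 0.068, adjusted p = 0.653), and differed by 0.030 without HDAC2 KO replicate 2. For Hspa4l the probe set of highest mean differed by -0.17 (SE 0.053, adjusted p = 0.0589), and with the replicate number as a block the adjusted p was 0.0494. The 5 Hspa4l probe sets all lay below control, by between -0.41 and -0.17, and 3 of them were called when probe sets were tested one by one.

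Hsp90aa1, which encodes the inducible form of cytosolic Hsp90, depended on the probe set read. The brightest probe set read 13.05, 12.96 and 13.11 in control and 12.90, 12.76 and 12.97 in HDAC2 KO, so the groups overlapped by a single value (-0.17, SE 0.061, adjusted p = 0.104). The difference was -0.11 without HDAC2 KO replicate 2 (adjusted p = 0.186), and with the replicate number as a block the adjusted p was 0.0246. A second Hsp90aa1 probe set read 12.21, 12.17 and 12.12 in control and 11.94, 11.83 and 11.83 in HDAC2 KO, without overlap (-0.30, SE 0.054, adjusted p = 0.0278 over all probe sets). A further one differed by -0.25 (SE 0.048, adjusted p = 0.0335 over all probe sets). The remaining 2 had control means of 5.58 and 5.12, below the signal filter of 6.66, and were not called.

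Co-chaperones that serve Hsp90 and Hsp70 were called lower in 6 of 7 cases, where 8.2% of all genes tested were. The groups of all 7 were apart, those of Bag1 in the upward direction. Of all genes tested, 37.7% were without overlap. Chordc1, which encodes a CHORD-domain partner of Hsp90, read 11.17, 11.13 and 11.16 in control and 10.53, 10.52 and 10.56 in HDAC2 KO. It was 1.53-fold lower (-0.62, SE 0.033, adjusted p = 1.18e-05). Its promoter held a run of overlapping matches of 3 units across the annotated gene start, starting 4 bases before it. The run closes this window of 150 bases on the plus strand, chr9:18292136-18292285 (GRCm38.p6).
Chordc1: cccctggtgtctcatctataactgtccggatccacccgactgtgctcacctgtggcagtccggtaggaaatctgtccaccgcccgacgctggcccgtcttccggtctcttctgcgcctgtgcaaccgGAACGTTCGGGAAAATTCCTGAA
Stip1, the linker that holds Hsp70 and Hsp90 together, was 1.22-fold lower (-0.29, SE 0.035, adjusted p = 0.00096). St13, which steadies the ADP-bound state of Hsp70, was 1.17-fold lower (-0.23, SE 0.034, adjusted p = 0.00313). The other 2 St13 probe sets differed by -0.067 and 0.021, and with the mean of its probe sets the call was lost (adjusted p = 0.202). Ahsa1, the activator of the Hsp90 ATPase, was 1.13-fold lower (adjusted p = 0.01), a call lost without control replicate 1 (adjusted p = 0.0533).

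Fkbp4, a peptidyl-prolyl isomerase of steroid receptor complexes, was 1.13-fold lower (-0.18, SE 0.046, adjusted p = 0.0335). Its call was lost in 7 of the alternatives run. Its adjusted p was 0.122 or 0.11 when control replicate 1 or 2 was left out, and 0.0613 or 0.0767 when HDAC2 KO replicate 2 or 3 was left out. It was 0.0913 without the signal filter, 0.0601 after median centring and 0.938 with the mean of its probe sets. Bag3, an exchange factor that links Hsp70 to small heat shock proteins, was 1.11-fold lower (-0.15, SE 0.032, adjusted p = 0.0148). Leaving out control replicate 1, control replicate 2 or HDAC2 KO replicate 1 gave Bag3 adjusted p-values of 0.0617, 0.0574 and 0.0595, and no signal filter gave 0.0562. Bag1, an exchange factor that also binds the proteasome, lay above control on each HDAC2 KO array and was not called (0.086, SE 0.034, adjusted p = 0.12).

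Hsp40 genes, whose products deliver clients to Hsp70, were called lower in 5 of 7 cases, where 8.2% of all genes tested were. Dnaja1 read 12.09, 12.08 and 12.07 in control and 11.37, 11.38 and 11.36 in HDAC2 KO. The spread was 0.0092 in control and 0.0093 in HDAC2 KO (SD of 3 arrays), and the gene was 1.64-fold lower (-0.71, SE 0.030, adjusted p = 3.39e-06). Of its other probe sets 1 was called, at -0.69 (SE 0.053), and 1 was not, at -0.79 (SE 0.19, adjusted p = 0.0697 over all probe sets), reading 8.70 on HDAC2 KO replicate 2 against 9.31 and 9.43 on the others. Dnaja4 was 1.36-fold lower, with means ± SD of 7.48 ± 0.064 for control and 7.04 ± 0.12 for HDAC2 KO (adjusted p = 0.00234). Of its other probe sets, 1 differed by -0.23 (SE 0.072, adjusted p = 0.165 over all probe sets) and 1 by 0.017, and neither was called. The mean of its 3 probe sets differed by -0.22 (adjusted p = 0.0081). Dnajb1, the Hsp40 that rises with Hsp70 under heat, was 1.18-fold lower (-0.24, SE 0.037, adjusted p = 0.00314), and its second probe set differed by -0.31 (SE 0.055).

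Dnajb2, which hands clients to the ubiquitin system, was 1.16-fold lower (-0.22, SE 0.036, adjusted p = 0.00486). Dnajb4 was 1.13-fold lower (-0.17, SE 0.043, adjusted p = 0.03). Blocking on the replicate number gave an adjusted p of 0.0521. Leaving out control replicate 1 or 2 gave 0.0898 and 0.0895, leaving out HDAC2 KO replicate 1 or 2 gave 0.0941 and 0.0505, no signal filter gave 0.0856 and the mean of its probe sets gave 0.119. Dnaja2, a constitutive Hsp40, had overlapping groups, with means ± SD of 12.17 ± 0.010 for control and 12.15 ± 0.022 for HDAC2 KO (adjusted p = 0.785).

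Dnajb6, which keeps aggregation-prone proteins soluble, had probe sets on both sides of 0. The brightest read 11.37, 11.38 and 11.35 in control and 11.47, 11.50 and 11.46 in HDAC2 KO (0.10, SE 0.031, adjusted p = 0.0551). Another read 8.95, 8.93 and 8.87 in control and 8.44, 8.41 and 8.46 in HDAC2 KO, a difference of -0.48 (SE 0.047, adjusted p = 0.00181 over all probe sets). The groups did not overlap in either probe set, in opposite directions. Which Dnajb6 transcripts each probe set binds was not analysed here.

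**Figure D2:**
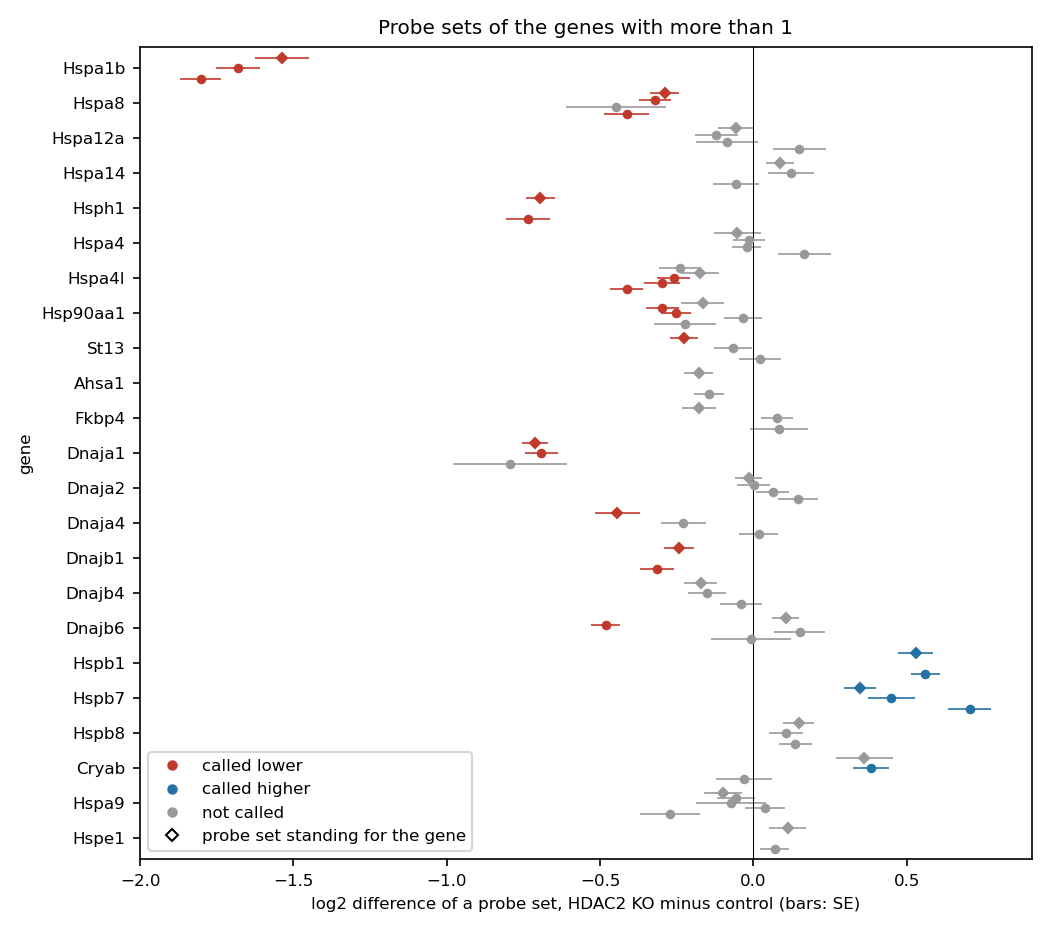
Log2 difference of each probe set, HDAC2 KO minus control, with its standard error (x axis), for the 23 genes with more than 1 probe set (y axis). Diamonds mark the probe set of highest mean, which stood for the gene, and colours mark calls over all probe sets. Dnajb6 has 1 called point at -0.48 while its other points lie between -0.0068 and 0.15, and the probe sets of Hspa1b, Hsph1, Dnajb1, Hspb1 and Hspb7 lie on 1 side of 0.

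Tested one by one, 23 of the 86 probe sets were called lower and 6 higher, where 2.08% and 1.72% of all 45037 probe sets were, 3.8% in either direction. The lower ones belonged to 13 genes and the higher ones to 3, and 0 genes held both. With the replicate number as a block 13 were called lower and 3 higher. Without an array the numbers lay between 11 and 16 lower and between 3 and 7 higher, with 11 lower without control replicate 1 or 2, 14 without control replicate 3 and 12 without HDAC2 KO replicate 1. The 3 higher called sets were found without control replicate 1 or HDAC2 KO replicate 1.

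Small heat shock genes went the other way, with 4 of 6 called higher and 0 lower (0 lower also at an unadjusted limma p under 0.05). Of all genes tested, 9.68% were called higher. Hspb1, which encodes Hsp25, an actin-protecting chaperone of epithelium and muscle, read 12.01, 12.06 and 11.95 in control and 12.51, 12.61 and 12.47 in HDAC2 KO. It was 1.44-fold higher (0.53, SE 0.047, adjusted p = 0.000227), and its second probe set differed by 0.56 (SE 0.048). Its promoter is shown for comparison with the inducible Hsp70 pair: 2 matches of 2 units start 117 and 97 bases before the annotated start, on the plus strand, chr5:135887769-135887918 (GRCm38.p6).
Hspb1: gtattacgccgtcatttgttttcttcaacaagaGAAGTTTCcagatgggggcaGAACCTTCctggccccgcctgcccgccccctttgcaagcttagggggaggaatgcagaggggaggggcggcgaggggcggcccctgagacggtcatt
Hspb7, a small heat shock gene typical of heart and muscle, read 7.73, 7.79 and 7.73 in control and 8.11, 8.03 and 8.15 in HDAC2 KO. It was 1.27-fold higher (0.35, SE 0.041, adjusted p = 0.00092), and its 3 probe sets differed by between 0.35 and 0.70.

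Cryab, which encodes alpha-B crystallin, read 9.12, 9.10 and 9.03 in control and 9.48, 9.24 and 9.61 in HDAC2 KO. The HDAC2 KO arrays were more spread than control, with replicate 2 nearest to it. Cryab was 1.29-fold higher (0.36, SE 0.084, adjusted p = 0.021). Leaving out control replicate 1, 2 or 3 gave adjusted p-values of 0.0571, 0.0598 and 0.0852, leaving out HDAC2 KO replicate 1 gave 0.0706, and no signal filter gave 0.0585. A second Cryab probe set differed by 0.38 (SE 0.060) and was called among all probe sets, and the remaining one, dim, differed by -0.032 (SE 0.091). The mean of the 3 differed by 0.24 (adjusted p = 0.00232). Hspb8, the partner of Bag3 in clearing misfolded proteins, was 1.11-fold higher (0.15, SE 0.039, adjusted p = 0.0361).

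For Hspb8, leaving out control replicate 1, 2 or 3 gave adjusted p-values of 0.055, 0.107 and 0.104, and leaving out HDAC2 KO replicate 1 or 2 gave 0.124 and 0.0572. No signal filter gave 0.101, median centring 0.0536 and the mean of its probe sets 0.0605. Without control replicate 1, 2 or 3 or HDAC2 KO replicate 1, 2 small heat shock genes were called in place of 4, Hspb1 and Hspb7. Hspb2, the neighbour of Cryab on chromosome 9, differed by 0.11 (SE 0.054, adjusted p = 0.224), and by 0.050 without HDAC2 KO replicate 3. Hspb6, an actin-associated member of smooth and striated muscle, differed by 0.087 (SE 0.041, adjusted p = 0.192), and by 0.048 without that array.

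Smooth muscle markers moved in the same direction as the small heat shock genes. Of 18 markers tested, 8 were called higher and 0 lower (12 and 0 at an unadjusted limma p under 0.05), with a median of 0.11. Their summed linear signal lay between 88968 and 90300 in control and between 96972 and 98503 in HDAC2 KO, and 0 of the 18 markers lay below the filter. Cnn1, which encodes calponin, was higher by 0.32 (SE 0.033), and Myocd, the smooth muscle regulator, differed by 0.31 (SE 0.047). Of the 16 striated muscle markers 13 lay below the filter, and the 3 tested, Ckm, Acta1 and Actc1, differed by between 0.12 and 0.16 with 0 called (3 higher at an unadjusted limma p under 0.05). Epithelial markers were higher in 3 of 15 cases, among them Krt20 (0.48, SE 0.037) and Car1 (0.46, SE 0.035), with a summed signal between 157595 and 158829 in control and between 166950 and 170336 in HDAC2 KO. The part of these markers in the small heat shock result was not tested.

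The mitochondrial chaperones were not called, and 0 of 3 had an unadjusted limma p under 0.05. Hspd1, the mitochondrial chaperonin Hsp60, read 12.59 on each control array and 12.60, 12.60 and 12.58 in HDAC2 KO (0.0041, SE 0.030, adjusted p = 0.946). Hspe1, its co-chaperonin and neighbour on chromosome 1, read 12.00, 11.94 and 12.01 in control and 12.15, 11.99 and 12.14 in HDAC2 KO. The groups overlapped (0.11, SE 0.051, adjusted p = 0.173), and without HDAC2 KO replicate 2 Hspe1 was called (adjusted p = 0.0204). Hspa9, the mitochondrial Hsp70, read 11.25, 11.03 and 11.16 in HDAC2 KO around a control mean of 11.25 (-0.10, SE 0.053, adjusted p = 0.244), and the difference was -0.044 without replicate 2. Hspd1 minus Hspa9 changed by 0.10 within arrays, from 1.34 ± 0.012 to 1.45 ± 0.11 (SD, n = 3, exact 2-sided permutation p = 0.2 raw and adjusted over the 3 gene pairs). This change was 0.045 when HDAC2 KO replicate 2 was left out. A p above the threshold does not show that these levels were alike.

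The promoter between Hspe1 and Hspd1, which were not called, is shown because it holds overlapping matches of 3 units. The run starts 89 bases before the Hspe1 start, on the plus strand, chr1:55087998-55088147 (GRCm38.p6).
Hspe1: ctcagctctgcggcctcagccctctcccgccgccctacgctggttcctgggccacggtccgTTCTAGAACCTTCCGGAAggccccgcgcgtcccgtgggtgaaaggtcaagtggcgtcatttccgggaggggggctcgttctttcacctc
Only exact matches to the searched forms are in capitals here and in the other windows, and what these promoters bind was not tested.

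**Figure D3:**
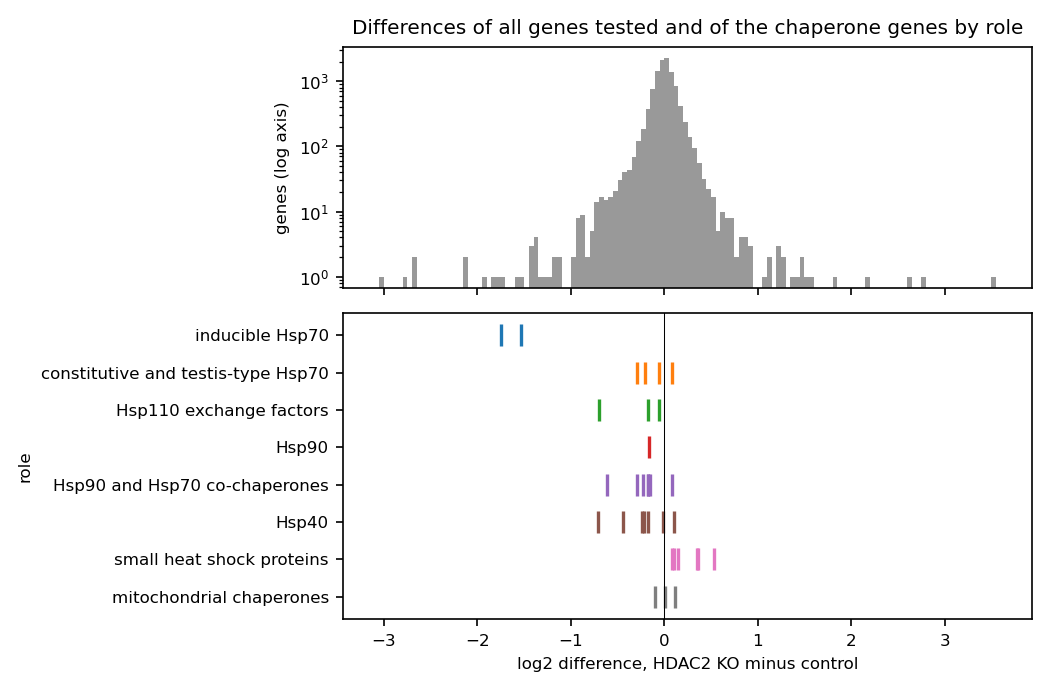
The upper panel gives the number of genes (log axis) by log2 difference, HDAC2 KO minus control, for the 10916 genes tested, and the lower panel marks each chaperone gene by role on the same x axis. The inducible Hsp70 pair lies at -1.75 and -1.54, and the mitochondrial chaperones lie between -0.10 and 0.11.

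Chaperone systems outside the 36 genes mostly showed no calls. Of 21 further Hsp70, Hsp40 and small heat shock genes 0 were called (2 lower and 2 higher at an unadjusted limma p under 0.05), with a median of -0.020. In the TRiC/CCT chaperonin and prefoldin, which fold actin and tubulin, 0 of 14 were called (3 lower and 0 higher at an unadjusted limma p under 0.05). Cct4 and Cct3 differed by -0.10 (SE 0.034) and -0.094 (SE 0.032). Among 34 proteasome subunits 1 was called higher and 0 lower (4 and 0 at an unadjusted limma p under 0.05). That subunit was Psmd14, the deubiquitinase of the lid, at 0.13 (SE 0.031, adjusted p = 0.0233).

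Other co-chaperones of Hsp90 and Hsp70 were called higher in 3 and lower in 1 of 19 cases. Bag2, an inhibitor of the ubiquitin ligase that acts on Hsp70 clients, was 1.27-fold higher (0.34, SE 0.037). Fkbp5, a glucocorticoid-induced isomerase that binds Hsp90, was 1.21-fold higher (0.28, SE 0.036), opposite in sign to its paralog Fkbp4. Ahsa2, the paralog of Ahsa1, was the 1 gene lower, by -0.18 (SE 0.051, adjusted p = 0.0424). Of 5 other heat shock factors and partners of heat shock factor 1, 0 were called (0 at an unadjusted limma p under 0.05). Of 15 other mitochondrial chaperones and proteases 1, the protease gene Htra2, was called higher (0.19, SE 0.043).

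Chaperones of the endoplasmic reticulum were also lower in part, with 6 of 17 called lower and 1 higher and a median of -0.10. Hyou1, the Hsp110-type exchange factor of that compartment, was 1.30-fold lower (-0.38, SE 0.038), and the disulfide isomerase gene Pdia4 was 1.19-fold lower (-0.25, SE 0.036). Dnajc10, a reductase of the same compartment, was 1.22-fold higher (0.29, SE 0.032). Immediate early genes, which respond within minutes to growth factors, stress and handling, were called higher in 9 and lower in 2 of 22 cases, with a median of 0.094. Maff, a small basic leucine zipper factor, differed by 0.34 (SE 0.036), the phosphatase gene Dusp1 by 0.31 (SE 0.035) and Klf2, a factor of endothelium and lymphocytes, by -0.48 (SE 0.052).

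Markers of cell types in which villin-Cre does not act moved as well. Leukocyte markers were lower in 12 of 13 cases, with a summed linear signal between 8512 and 8861 in control and between 5058 and 5208 in HDAC2 KO, and 5 of 18 markers below the filter. Adipocyte markers were lower in 7 and higher in 1 of 8 cases, with a summed signal between 15211 and 15925 in control and between 3884 and 4073 in HDAC2 KO, and 2 of 10 below the filter. Endothelial markers were lower in 5 of 11 cases, with sums between 3461 and 3584 in control and between 3041 and 3241 in HDAC2 KO. Mcpt1, Adipoq and Vwf led these lists at -1.94, -3.02 and -0.60. The part of these cells in the lower cytosolic chaperones was not tested. Fibroblast markers were called lower in 2 of 11 cases, and markers of enteric neurons, glia and pacemaker cells lower in 1 and higher in 1 of 10.

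**Figure D4:**
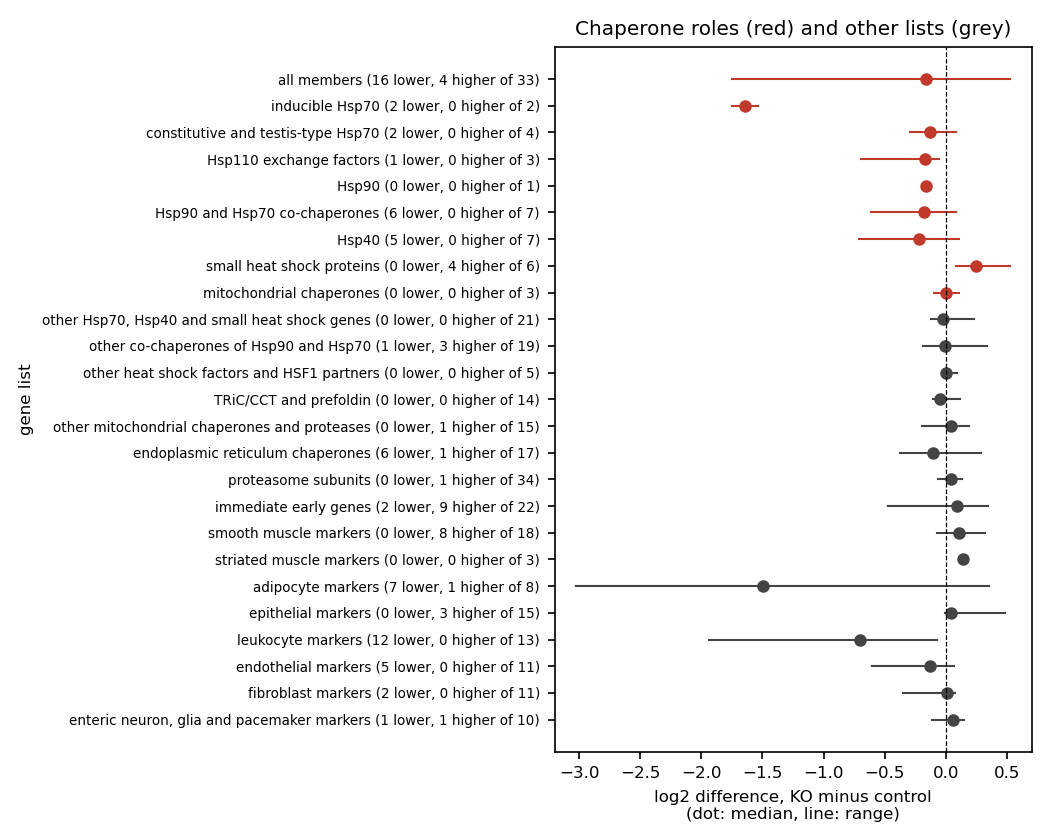
Median (dot) and range (line) of the log2 difference, HDAC2 KO minus control (x axis), over the tested genes of each chaperone role (red) and of other lists (grey), with counts of calls in each label (y axis). The dashed line is the median of all genes tested, 0.0032. The inducible Hsp70 pair lies at a median of -1.64, small heat shock genes at 0.25, adipocyte markers at -1.50 and leukocyte markers at -0.70.

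As a check of the labels, Hdac2 itself read 10.40, 10.37 and 10.43 in control and 10.21, 10.12 and 10.24 in HDAC2 KO (-0.21, SE 0.040, limma adjusted p = 0.00893). The exons under its probe set were not analysed here, and a signal from outside the deleted part checks nothing. Hdac1, which the description label also names, was 1.11-fold higher (0.15, SE 0.039, adjusted p = 0.0321).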

How the data were processed

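Colon RNA of 3 control and 3 HDAC2 KO mice was labelled with biotin and read on 1-channel Affymetrix arrays, per the labels' protocols. The deposited log2 values were made by the authors with RMA, per the submitters' processing notes. Because RMA gives every array the same distribution of probe intensities before they are summarized, total RNA cannot be compared. RMA also compresses differences at low signal. The scale was read from the values, 2.39 to 14.6 with array medians of 6.17 to 6.21. Scanner files and hybridisation batches were not used here, and the number of arrays limits the precision.

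Gene symbols came from the platform annotation: 34945 probe sets had 1 symbol, 932 several and 9160 none listed. Each gene was represented by its probe set of highest mean, and the 10916 of 18193 genes at or above the 40th percentile (log2 signal 6.66) entered a linear model with group as the sole term (limma 3.58.1, R 4.3.3, lmFit and eBayes, Benjamini-Hochberg adjustment). All probe sets other than 64 array controls were also fitted one by one. Differences of 2 genes within arrays were compared by exact permutation, and 1 of 4 such pairs was not run since it needs Hsp90ab1. The fit was tested on simulated data.

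Deviations from the group means correlated with r between 0.20 and 0.34 for same-numbered arrays and between -0.37 and 0.18 for others. Deviations balance out within each group, so these values are not independent and do not establish a pairing by number. No label states a pairing, and the replicate block was run as an alternative. Members, 16 gene lists and tests were chosen with earlier results of these data known. Named are all members, Hdac1, Hdac2 and at most the 3 genes of smallest p in each list.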

Additional observations from a re-analysis of the deposited data

How the results depend on the processing

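Each chaperone gene was refitted under up to 15 alternatives, in 488 tests, of which 429 kept direction and side of the threshold. Of the 20 called genes, 9 lower and 2 higher ones were called in every alternative, 9 lost the call in at least 1, and 0 changed sign. Of the 13 uncalled genes 5 were called in at least 1. The replicate block called 1943 genes in all, 17 lower and 4 higher chaperone genes were called, against 1952, 16 and 4 without it. With pairs, the exact p of each gene pair was 0.25, the smallest that 3 pairs allow. Besides Hspa4l, Hsp90aa1 and Dnajb4, the block changed no call of a chaperone gene. Among probe sets it left 13 lower and 3 higher calls. Array weights called 3506 genes and 7 higher chaperone genes. At an adjusted p under 0.01 there were 954 genes, 2 higher chaperone genes, and 11 lower and 3 higher probe sets. Without the filter 2 chaperone genes were higher. Without 1 array the counts ran from 1130 to 2107 genes, from 11 to 17 lower and 2 to 4 higher chaperone genes, and from 11 to 16 lower and 3 to 7 higher probe sets. The sign turned for Hspa4 (0.020), Dnaja2 (0.048) and Dnajb6 (-0.058) when probe sets were averaged. It also turned for Hspa4 without HDAC2 KO replicate 2 (range without 1 array, -0.12 to 0.030). Further turns were those of Dnaja2 without _s_at and _x_at probe sets (0.00039) and Hspd1 after further quantile normalization (-0.013). All 4 were uncalled. Causes were not tested.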
